A study of Mus musculus with 8 samples.

Results

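The contractile apparatus of smooth muscle and myofibroblasts was followed in mouse myocardium through 10 genes: *Acta2*, *Actg2*, *Tagln*, *Myh11*, *Cnn1*, *Myl9*, *Smtn*, *Lmod1*, *Mylk* and *Tpm2*. They were chosen by name from the 33249 genes of the deposited table, and all 10 passed the filter on low values. After myocardial infarction (MI) none of them rose in the comparison over both genotypes. *Mylk*, *Actg2* and *Myh11* fell, 3 of the 10 genes, beside 18.3% of all genes called lower. *Myh11* passed narrowly (adjusted p = 0.048 in edgeR) with overlapping groups. The calls of *Actg2* and *Myh11* were lost without some single libraries. On the authors' FPKM scale *Acta2* alone was called, higher. Markers of activated fibroblasts rose strongly in the MI hearts, but little in the library labelled fl/fl-MI replicate 2. That library held the highest *Acta2*, *Myl9*, *Smtn* and *Tpm2* and the lowest *Myh11* and *Lmod1* of the 8 libraries. Of all genes 19.9% were at their highest there and 19.5% at their lowest.

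In smooth muscle, a rise in calcium activates myosin light chain kinase (*Mylk*) through calmodulin, and the kinase phosphorylates the regulatory light chain (*Myl9*) of smooth muscle myosin (*Myh11*), which then pulls on actin filaments (*Acta2*, *Actg2*). Transgelin (*Tagln*), calponin (*Cnn1*), smoothelin (*Smtn*), leiomodin (*Lmod1*) and beta-tropomyosin (*Tpm2*) bind or build those filaments. In the heart these proteins are best known from the walls of coronary arteries, while *Acta2*, *Tagln* and *Cnn1* are also made by myofibroblasts, the fibroblasts that acquire contractile fibers while a scar forms. Many of these genes are known targets of serum response factor (*Srf*) and its partners myocardin (*Myocd*) and the myocardin-related factors (*Mrtfa*, *Mrtfb*), which act at CArG boxes.

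RNA sequencing was read from 8 libraries in 4 groups of 2: sham hearts labelled fl/fl or CKO, and infarcted hearts under the same pair of labels, written fl/fl-Sham, fl/fl-MI, CKO-Sham and CKO-MI. All mice carried the floxed *Piezo1* allele (Piezo1tm2.1Apat), and *Piezo1* encodes a mechanosensitive cation channel. CKO mice also carried Myh6-cre/Esr1, a Cre recombinase fused to an estrogen receptor domain and driven by a cardiomyocyte promoter, so smooth muscle cells and fibroblasts were not its target. The fl/fl mice were littermates without it, and tamoxifen was injected at 4 weeks of age. MI was made at 8 weeks of age by tying off the left anterior descending coronary artery for good, sham mice had the operation without ligation, and the MI hearts were taken at day 42. The labels give the tissue as myocardium, with no zone of the heart, and do not say whether the libraries of a group came from separate animals, so the p-values measure only the spread between these libraries. In such bulk RNA, fewer cells of a type and less RNA per cell cannot be told apart.

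Levels are given as CPM, the counts of a gene scaled to library size and corrected between libraries by the trimmed mean of M-values (TMM). Total counts per library ranged from 73821747 to 88117573. Mitochondrial transcripts made up 43.1% to 46.4% of sham counts but 19.9% to 24.2% of MI counts. The targeted gene, *Piezo1*, was at 72.2 and 81.98 CPM under the label fl/fl-Sham, 76.7 and 88.3 in CKO-Sham, 53.5 and 64.8 in fl/fl-MI and 56.3 and 64.6 in CKO-MI, so its level did not separate the genotype labels. *Esr1*, whose coding sequence the transgene shares in part, was at 706.97 and 402 CPM in CKO-MI and at 331 CPM in fl/fl-MI 2, but at 5.52 and 7.60 CPM in CKO-Sham and at most 8.36 CPM in the remaining libraries. Those values go against the genotype labels, and every genotype comparison below is one of labels. The library labelled fl/fl-MI 2 also stood apart in its atrial genes: the atrial light chain *Myl4* reached 2810 CPM, against at most 47.998 CPM elsewhere, and the atrial growth factor *Bmp10* 3834 CPM, against at most 18.8. Results that rest on this library are given with and without it.

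Between genes, levels were compared by FPKM, which is scaled to gene length. Over the 8 libraries *Myl9* had the highest mean, 56.2 FPKM, but without the library labelled fl/fl-MI 2 its mean was 32.0 ± 11.5 (SD, n = 7) and below that of *Acta2*, 42.5 ± 14.7 (SD, n = 7). Next came *Smtn* at 23.2 ± 2.40, *Tagln* at 20.2 ± 9.51, *Tpm2* at 11.3 ± 2.15, *Myh11* at 8.94 ± 2.92 and *Actg2* at 7.21 ± 1.08 FPKM (SD, n = 7). The SD ranges of neighbours among these 5 overlapped, as did those of *Acta2* and *Myl9*. *Cnn1* (3.40 ± 1.11), *Mylk* (3.17 ± 0.680) and *Lmod1* (1.63 ± 0.620 FPKM, SD, n = 7) were the lowest, and *Cnn1* and *Mylk* did not differ beyond their spread. The members lie on 8 chromosomes of GRCm38: the genes called in the MI comparison are *Myh11* at chr16:14194535-14291372, *Mylk* at chr16:34745210-35002420 and *Actg2* at chr6:83512905-83536265, and *Acta2* lies at chr19:34241090-34255590.

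**Figure D1:**
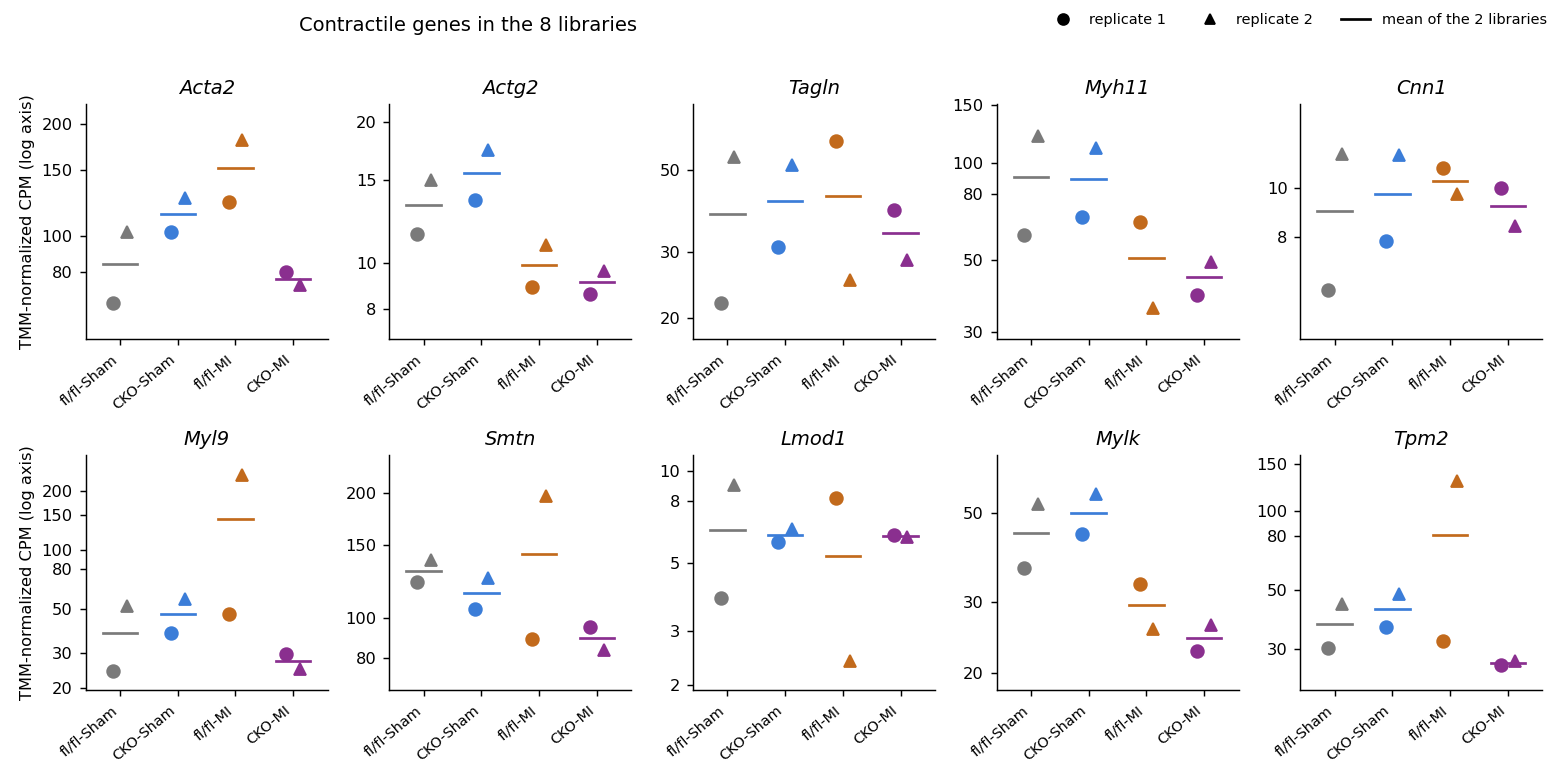
TMM-normalized CPM (log axis, a scale per panel) of the 10 contractile genes in the 8 libraries; circles and triangles are replicates 1 and 2 of each group and lines are their means. *Mylk* and *Actg2* are lower in the 4 MI libraries than in the 4 sham libraries, and the fl/fl-MI triangle is the highest point for *Acta2*, *Myl9*, *Smtn* and *Tpm2*.

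The first question was how the contractile genes stood 42 days after MI, over both genotypes. Of the 10 genes 3 fell and 0 rose (edgeR's quasi-likelihood test, adjusted p under 0.05 over the 14028 genes tested), against 40.4% of all genes called, 22% higher and 18.3% lower. Their median log2 fold change was -0.09, beside 0.035 for all genes tested. The 3 that fell belong to the motor and its switch and to the actin of visceral smooth muscle. No call was made for the filament-binding genes *Tagln*, *Cnn1*, *Smtn*, *Lmod1* and *Tpm2*.

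*Mylk*, the light chain kinase, was at 36.4 and 52.5 CPM in fl/fl-Sham, 44.1 and 55.4 in CKO-Sham, 33.1 and 25.7 in fl/fl-MI and 22.6 and 26.3 in CKO-MI. All 4 MI libraries lay below all 4 sham libraries, an order that 19.5% of all genes showed. The log2 fold change was -0.81 (SE 0.16, adjusted p = 0.0086 in edgeR), a level 0.57 times that of sham, and it was -0.72 (adjusted p = 0.0082) when fl/fl-MI 2 was left out.

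*Actg2*, the gamma-actin of visceral smooth muscle, was at 11.5 and 15.0 CPM in fl/fl-Sham, 13.6 and 17.4 in CKO-Sham, 8.90 and 10.9 in fl/fl-MI and 8.60 and 9.60 in CKO-MI. Here too the 4 MI libraries lay below the 4 sham libraries. The log2 fold change was -0.59 (SE 0.16, adjusted p = 0.023 in edgeR), a level 0.662 times that of sham, and the call was lost without fl/fl-Sham 2, CKO-Sham 2 or CKO-MI 1. The coding sequence of *Actg2* is close to that of cardiac actin, *Actc1*, which stood at 2698 to 8197 CPM and rose after MI (log2 fold change 0.93, adjusted p = 0.022), and how the counting treated reads that match both is not given in the sources used here.

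*Myh11*, the smooth muscle myosin heavy chain, was at 59.9 and 120.9 CPM in fl/fl-Sham, 67.7 and 110.7 in CKO-Sham, 65.7 and 35.6 in fl/fl-MI and 39.0 and 49.5 in CKO-MI. Its groups overlapped, because fl/fl-MI 1 was above the lower fl/fl-Sham library. The log2 fold change was -0.92 (SE 0.30, adjusted p = 0.048 in edgeR), a level 0.527 times that of sham. The call was lost when fl/fl-MI 2 was left out (-0.74, adjusted p = 0.064), without fl/fl-Sham 2 (-0.63, adjusted p = 0.16) and without any 1 of the CKO-Sham and CKO-MI libraries.

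The other 7 genes did not pass. *Tagln*, an early marker of smooth muscle differentiation, spanned 21.9 to 54.3 CPM in sham and 25.2 to 59.9 in MI, with a log2 fold change of -0.06 (SE 0.38). *Cnn1*, an inhibitor of actomyosin ATPase, spanned 6.28 to 11.7 CPM in sham and 8.39 to 10.9 in MI (0.06, SE 0.23). *Lmod1*, which nucleates actin filaments, spanned 3.85 to 9.005 CPM in sham and 2.40 to 8.20 in MI (-0.14, SE 0.42). For these 3 genes the groups overlapped almost wholly, and the standard errors leave room for changes of the size seen for *Mylk* in *Tagln* and *Lmod1*.

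*Acta2*, alpha smooth muscle actin, was at 65.8 and 102 CPM in fl/fl-Sham, 102.6 and 126 in CKO-Sham, 123 and 181 in fl/fl-MI and 79.99 and 73.6 in CKO-MI. The fl/fl-MI libraries were above and the CKO-MI libraries below the sham libraries of their own label. The share of all genes with that order was not computed. The mean log2 fold change of *Acta2* was 0.14 (SE 0.19, adjusted p = 0.59 in edgeR). *Smtn* was at 122 and 138 CPM in fl/fl-Sham, 105 and 125 in CKO-Sham, 88.8 and 197 in fl/fl-MI and 95.0 and 83.6 in CKO-MI. Of its MI libraries, 3 were below all 4 sham libraries and fl/fl-MI 2 was above them all. With that library the log2 fold change was -0.12 (SE 0.24), and without it *Smtn* fell (-0.46, SE 0.11, adjusted p = 0.013). Without it 3 of the 10 genes were called, *Mylk*, *Actg2* and *Smtn*, all lower, against 50.7% of all genes.

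*Myl9*, the regulatory light chain, was at 24.2 and 51.9 CPM in fl/fl-Sham, 37.99 and 56.5 in CKO-Sham, 47.2 and 241 in fl/fl-MI and 29.8 and 24.9 in CKO-MI. *Tpm2* was at 30.2 and 44.3 CPM in fl/fl-Sham, 36.2 and 48.5 in CKO-Sham, 32.1 and 129 in fl/fl-MI and 26.04 and 26.9 in CKO-MI. In both genes fl/fl-MI 2 alone was far above the rest. The log2 fold change of *Myl9* was 0.57 (SE 0.49) and that of *Tpm2* 0.22 (SE 0.40), and both turned below 0 without that library (-0.24, adjusted p = 0.49, and -0.45, adjusted p = 0.057). Without fl/fl-MI 1 in its place they were called higher, at 0.92 and 0.54, and 5 of the 10 genes were called, against 48.5% of all genes.

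The scale of the libraries bears on these directions. On the authors' FPKM, tested with limma on log2(FPKM + 1), the median of all genes was 0.41 higher after MI, and 1 of the 10 genes was called, against 56.1% of all genes: *Acta2*, at 0.70 (adjusted p = 0.014), or 0.29 above that median. *Myh11*, *Mylk* and *Actg2* were at -0.30, -0.18 and -0.02 on that scale and not called, and lay 0.70, 0.59 and 0.43 below the median of all genes. The median of the 10 was 0.44 on that scale, close to the 0.41 of all genes.

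**Figure D2:**
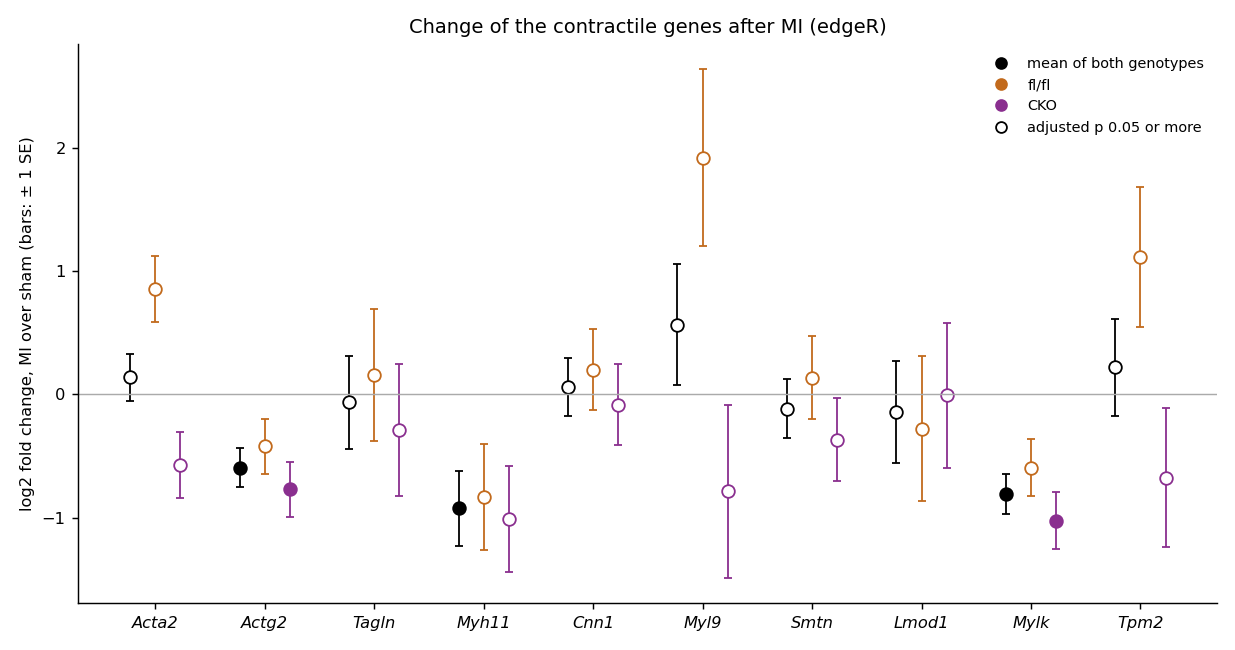
Log2 fold change of each contractile gene after MI with 1 SE, from edgeR, for the mean of both genotypes and for the fl/fl and CKO labels apart; filled points have an adjusted p under 0.05. *Mylk* and *Actg2* are filled in the mean and in CKO, *Myh11* in the mean, and the fl/fl points of *Myl9* and *Tpm2*, at 1.92 and 1.12, have the widest bars above 0.

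By label, calls were made in CKO and none in fl/fl, and the difference between the labels is tested below. In CKO-MI against CKO-Sham 2 of the 10 genes fell and 0 rose, against 24.7% of all genes called, or 11.9% called lower. *Mylk* changed by -1.03 (SE 0.23, adjusted p = 0.022) and *Actg2* by -0.77 (SE 0.22, adjusted p = 0.046) on the log2 scale. The log2 fold changes of all 10 genes were below 0, with a median of -0.63 beside 0.008 for all genes. On log2(FPKM + 1), where the median of all genes was 0.39, *Tagln*, *Cnn1*, *Smtn* and *Lmod1* lay above 0, and 0 of the 10 were called (limma, adjusted p = 0.29 for *Mylk* and 0.52 for *Actg2*), against 36.8% of all genes. With only the 4 CKO libraries in the fit 6 genes were called, all lower, against 16.4% of all genes. Leaving out any 1 of these 4 libraries left 0 calls, while the share of all genes called fell to between 0.178% and 10.1%, and leaving out either fl/fl-Sham library left 1, *Mylk*, against 13.5% of all genes.

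In fl/fl-MI against fl/fl-Sham edgeR called 0 of the 10, against 18.5% of all genes, and 3 had an unadjusted p under 0.05, against 36.3%; DESeq2 called 2, *Acta2* and *Myl9*, both higher, against 28.8%. The log2 fold changes were 0.85 for *Acta2* (SE 0.27, adjusted p = 0.066 in edgeR), 1.92 for *Myl9* (SE 0.72, adjusted p = 0.10), 1.12 for *Tpm2* (SE 0.57) and -0.60 for *Mylk* (SE 0.23, adjusted p = 0.11). Without fl/fl-MI 2 they were 0.55, 0.31, -0.22 and -0.42, with 0 calls, against 29.5% of all genes. With it as the only fl/fl-MI library 5 genes were called, against 29.8% of all genes: *Acta2*, *Myl9*, *Smtn* and *Tpm2* higher and *Mylk* lower.

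The second question was whether the genotype label went with the contractile genes. Among MI hearts, CKO against fl/fl gave 0 calls of 10 in edgeR, against 0% of all genes, and 3 genes with an unadjusted p under 0.05, against 8.31%. DESeq2 called *Myl9*, against 1.48% of genes. *Acta2* was 0.51 times as high in CKO-MI (log2 fold change -0.98, SE 0.27, adjusted p = 0.55 in edgeR). Both CKO-MI libraries lay below both fl/fl-MI libraries, an order whose share among all genes is not given here. Without fl/fl-MI 2 the change of *Acta2* was -0.68. *Myl9* was at -2.40 (SE 0.73) and *Tpm2* at -1.61 (SE 0.57), and without that library at -0.79 and -0.28, with 0 calls, against 0.192% of all genes. Of the 10 log2 fold changes 9 were below 0, the exception being *Lmod1* at 0.21 (SE 0.59). Without fl/fl-MI 1, 4 of the 10 were called, all lower, against 11.9% of all genes: *Acta2*, *Myl9*, *Smtn* and *Tpm2*.

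Among sham hearts the genotype labels differed little. Of the 10 genes 0 were called, against 0.00713% of all genes, and 0 had an unadjusted p under 0.05, against 3.89%. DESeq2 also called 0, against 0.242%. *Acta2* was at 0.45 (SE 0.27), and the other 9 lay between -0.17 for *Smtn* and 0.31 for *Myl9*. The standard errors ran from 0.22 for *Actg2* to 0.70 for *Myl9*, so a difference of 2-fold in *Myl9*, *Lmod1*, *Tpm2* or *Tagln* was not detectable with these libraries.

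The difference between the MI effects in CKO and fl/fl, tested as an interaction, called 0 of 10 in edgeR, against 0% of all genes, with 2 at an unadjusted p under 0.05, against 8.49%, and 0 in DESeq2, against 0.934%. It was -1.43 for *Acta2* (SE 0.38, adjusted p = 0.57), -2.71 for *Myl9* (SE 0.999, adjusted p = 0.57) and -1.79 for *Tpm2* (SE 0.80). Without fl/fl-MI 2 these were -1.13, -1.10 and -0.46, with 0 calls, against 0.0356% of all genes, and without fl/fl-MI 1 all 3 were called, against 5.35%.

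The library labelled fl/fl-MI 2 split the 10 genes. It was the highest of the 8 for 4 of them, where 19.9% of all genes had their highest value there, and the lowest for 2, against 19.5%. *Myl9* at 241 CPM was 4.27 times the next highest library, *Tpm2* at 129 CPM 2.67 times, and *Smtn* and *Acta2* 1.43 times each. *Lmod1* at 2.40 CPM was 0.623 times the next lowest library and *Myh11* at 35.6 CPM 0.913 times. *Tagln* and *Mylk* were at their second lowest there.

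Other lists moved with this library. The summed CPM of the 5 atrial markers was 19857 there, 135.04 to 594 in sham and 2547 to 4450 in the other MI libraries, and all 5 were at their highest. The 14 mural cell markers summed to 600.1 CPM, the lowest of the 8, and 8 of them were at their lowest. The 13 activated fibroblast markers summed to 506 CPM, against 2304 to 4013 in the other 3 MI libraries. *Srf*, at 93.6 CPM, and *Myocd*, at 55.4 CPM, were the highest of the 8, and 7 of the 11 regulators had their highest value there. The part of these markers in the contractile gene values was not tested.

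The authors' transcript estimates divided the rise of *Tpm2* and *Smtn* in that library unevenly among their forms. *Tpm2*, on the minus strand at chr4:43514711-43523765 of GRCm38, has a pair of mutually exclusive internal exons and a choice of last coding exon. The upstream last coding exon is part of the form known from striated muscle. The downstream one is part of the form known from smooth muscle and fibroblasts. Tpm2-201 is mixed, as it shares its internal exon with Tpm2-203 and its last coding exon with Tpm2-202. The 4 exon sequences are shown because the library differed in their use. They are the coding parts in GENCODE M21 on GRCm38, on the minus strand, written 5′ to 3′, and capitals mark the bases that differ within each pair, 35 of 76 in the internal exons and 47 of 80 in the last ones.
Upstream internal exon, chr4:43519003-43519078 (Tpm2-201 and Tpm2-203): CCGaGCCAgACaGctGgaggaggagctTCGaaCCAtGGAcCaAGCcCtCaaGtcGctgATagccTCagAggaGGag
Downstream internal exon, chr4:43518644-43518719 (Tpm2-202): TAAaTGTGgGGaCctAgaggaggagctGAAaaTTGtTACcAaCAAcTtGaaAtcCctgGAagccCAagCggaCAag
Upstream last coding exon, chr4:43515924-43516003 (Tpm2-201 and Tpm2-202): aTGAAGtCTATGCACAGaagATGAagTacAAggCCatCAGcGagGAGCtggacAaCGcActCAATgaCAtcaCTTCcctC
Downstream last coding exon, chr4:43514782-43514861 (Tpm2-203): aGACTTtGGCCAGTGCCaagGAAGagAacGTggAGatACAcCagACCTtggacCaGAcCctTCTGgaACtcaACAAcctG

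The forms with the upstream last coding exon summed to 62.8 FPKM in fl/fl-MI 2 and to 7.17 to 12.4 FPKM in the other 7 libraries. Tpm2-202, which also holds the downstream internal exon, was at 31.8 FPKM there and at most 3.72 elsewhere, and Tpm2-201 was at 31.1 FPKM against at most 9.89. The forms ending with the downstream exon, Tpm2-203 and the intron-retaining Tpm2-205, summed to 4.59 FPKM there and to 5.12 to 18.0 elsewhere. Thus 93.2% of the *Tpm2* FPKM in that library came from forms with the upstream last exon, against 28.4% to 67.2% in the others. Tpm2-202 held 47.1% and the mixed form Tpm2-201 46.1% of the *Tpm2* FPKM there. The untranslated end of Tpm2-201 and Tpm2-202 covers the downstream last exon, so reads in it are shared between the forms, and these shares are the authors' estimates with no test.

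In *Smtn* (chr11:3517523-3540612) the short coding form Smtn-201, which starts inside the gene, was at 56.7 FPKM in fl/fl-MI 2 and 9.85 to 18.9 in the others. The long coding forms summed to 29.5 FPKM, against 17.5 to 25.8. Smtn-206, a noncoding transcript of 3 exons, was at 32.6 FPKM, against 5.83 to 13.3. The short form thus took 47.7% of the summed *Smtn* FPKM in that library and 22.6% to 40.1% in the others. Smtn-201 and Smtn-206 lie within the span of the long forms, so reads can be shared between them. These shares too are the authors' estimates with no test. The short form is known from visceral and the long form from vascular smooth muscle. *Acta2*, *Myl9* and *Lmod1* were each read almost wholly from 1 transcript, at 98.6% or more of their FPKM in every library. *Myh11* was divided among 3 coding transcripts whose shares moved widely from library to library, from 23.6% to 70.6% for Myh11-204.

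**Figure D3:**
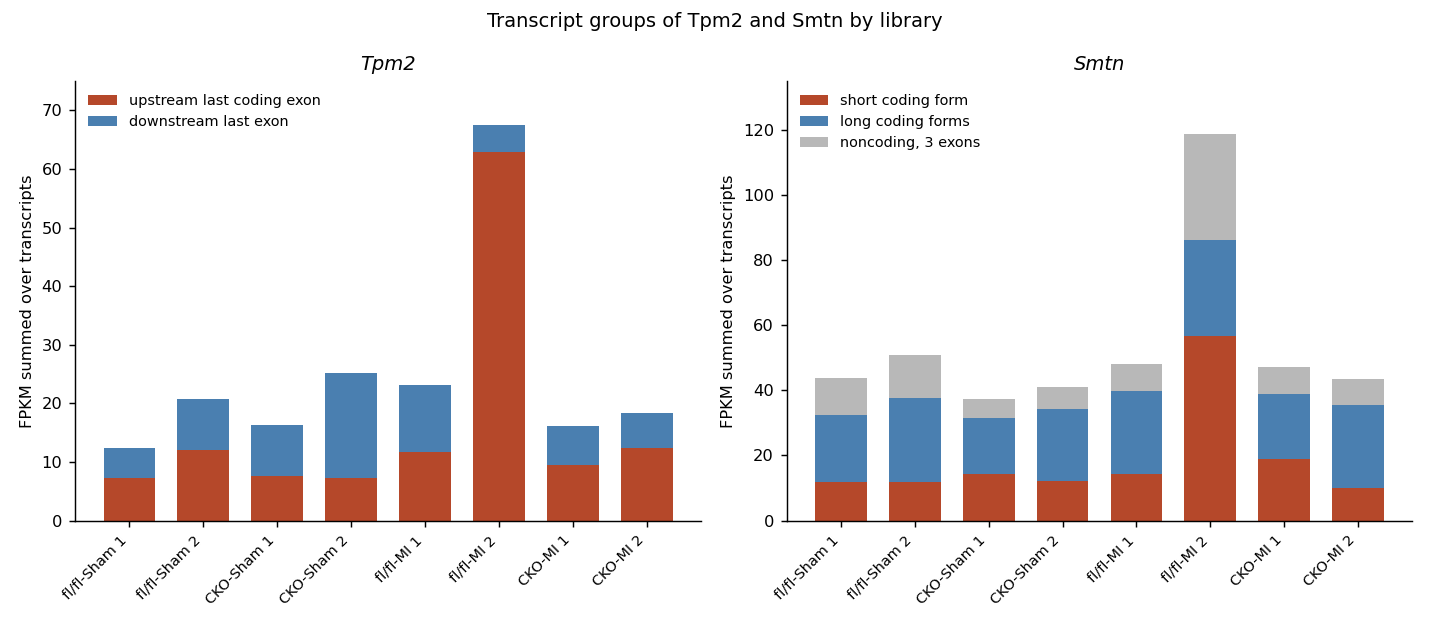
FPKM summed over transcript groups of *Tpm2* (by last coding exon) and *Smtn* (short, long and noncoding forms) in each of the 8 libraries. In fl/fl-MI 2 the bar of *Tpm2* is 93.2% upstream last exon, and the short form of *Smtn*, at 56.7 FPKM, is its largest share.

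The sham libraries were themselves spread, and in a shared direction. All 10 genes were higher in fl/fl-Sham 2 than in fl/fl-Sham 1, with a median ratio of 1.71 and a range from 1.12 for *Smtn* to 2.48 for *Tagln*, while 48.8% of all genes were higher in that library. Of the 10 genes 6 exceeded a ratio of 1.5, against 4.48% of all genes. All 10 were also higher in CKO-Sham 2 than in CKO-Sham 1, with a median of 1.31 and a range from 1.10 for *Lmod1* to 1.65 for *Tagln*, against 50.5% of all genes, and 2 of 10 exceeded 1.5, against 5.24%. This order was noticed in the data, and genes that share cells or regulators are not independent.

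Few other lists shared this order. The mural cell markers had median ratios of 1.07 and 1.10, with 8 and 10 of 14 genes higher in replicate 2, and the smooth muscle cytoskeleton genes 1.04 and 1.14, with 9 and 11 of 12. The endothelial markers had ratios of 1.003 and 0.932. In CKO-Sham 2 the 13 activated fibroblast markers were also all higher than in CKO-Sham 1, with a median ratio of 1.82, and so were the 5 atrial markers, with a median ratio of 4.45. In fl/fl-Sham 2, 4 of 13 activated fibroblast markers and 1 of 5 atrial markers were higher than in fl/fl-Sham 1, and the part of these markers in the sham spread was not tested. The spread between the libraries of every group, sham and MI, entered the standard errors above. The widest in the 6 comparisons were those of *Myl9*, *Lmod1* and *Tpm2*. Their ratios of fl/fl-MI 2 to fl/fl-MI 1 were 5.11, 0.293 and 4.03.

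**Figure D4:**
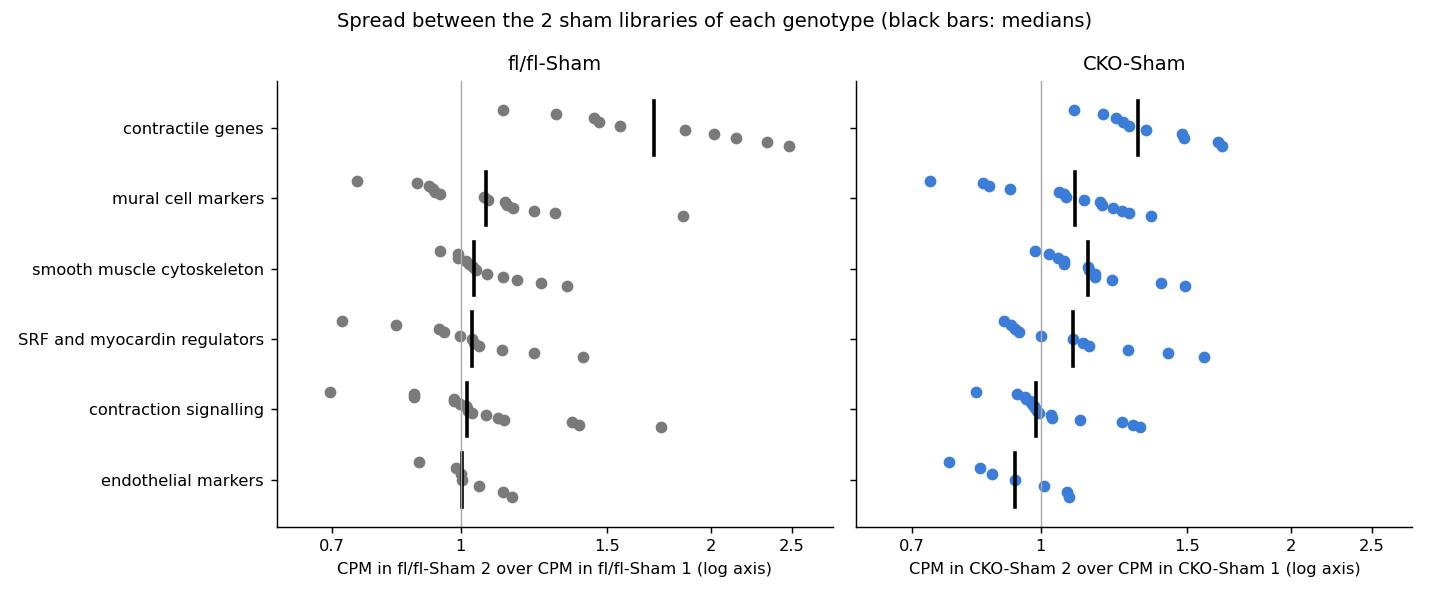
Ratio of CPM between the 2 libraries of each sham group (log axis), a point per gene, for the contractile genes and 5 related lists, with medians as black bars. All 10 contractile genes lie above 1 in both groups, with medians of 1.71 and 1.31.

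The contractile genes were then set beside the genes around them, in the comparison of MI with sham over both genotypes. The call counts of every list below stand beside 22% of all genes called higher and 18.3% lower. On log2(FPKM + 1) the shares were 50.1% higher and 5.97% lower. Of the 11 regulators of serum response factor and myocardin targets, 4 rose and 1 fell, with a median log2 fold change of 0.28. *Myocd* rose by 1.78 (SE 0.31, adjusted p = 0.0050), from 6.62 to 12.6 CPM in sham to 21.3 to 55.4 in MI. *Srf* rose by 1.18 (SE 0.17, adjusted p = 0.0026), from 28.2 to 34.2 CPM to 55.1 to 93.6, and *Csrp2*, a LIM cofactor, and *Elk1*, a competing partner of *Srf*, by 1.02 and 0.84. *Mrtfa* (0.31, adjusted p = 0.12) and *Mrtfb* (-0.31, adjusted p = 0.069) did not pass. The level of *Myocd* and *Srf* RNA was thus higher in all 4 MI libraries than in all 4 sham libraries. None of the 10 contractile genes was called higher. On FPKM, *Myocd* and *Srf* were also called higher, and so was *Acta2*. Bulk RNA does not show which cells made *Myocd* and *Srf*.

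Of 16 tested genes of contraction signalling 4 rose and 4 fell, near the shares of 22% and 18.3% of all genes. The cGMP-dependent kinase *Prkg1* rose by 1.78 (SE 0.25) and the myosin phosphatase subunit *Ppp1r12b* by 1.43 (SE 0.15), and the smooth muscle potassium channel subunit *Kcnmb1* changed by -0.96 (SE 0.29, adjusted p = 0.034). Of the 12 cytoskeletal genes of smooth muscle, 8 rose and 0 fell, with a median of 0.74. *Pgm5* rose by 1.59 (SE 0.22), vinculin (*Vcl*) by 1.49 (SE 0.11), palladin (*Palld*) by 1.36 (SE 0.14) and *Synpo2* by 1.10 (SE 0.17). These adhesion and Z-disc proteins are made by cardiomyocytes as well. On the FPKM scale 9 of the 16 signalling genes rose, beside 50.1% of all genes, and 0 fell, beside 5.97%. The 4 falls of that list, *Kcnmb1* included, were thus not called there.

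Of 22 tested paralogs of the contractile genes 7 rose and 2 fell, beside 22% and 18.3% of all genes. Those that rose include genes of the cardiomyocyte: leiomodin 2 (*Lmod2*) rose by 2.004 (SE 0.26), cardiac light chain kinase (*Mylk3*) by 0.99 (SE 0.30) and *Actc1* by 0.93 (SE 0.25). Nonmuscle myosin *Myh10* rose by 1.10 (SE 0.17) and *Tagln3* changed by -1.21 (SE 0.32, adjusted p = 0.022). Among actins, *Acta1* (-0.21, SE 0.74), *Actb* (-0.03, SE 0.12) and *Actg1* (0.22, SE 0.19) did not pass, nor did the tropomyosins *Tpm1* (-0.25, SE 0.21), *Tpm3* (0.03, SE 0.09) and *Tpm4* (0.12, SE 0.11). On FPKM 17 of the 22 paralogs rose, beside 50.1% of all genes, and 0 fell. Among those that rose were *Actb*, *Actg1*, *Tpm3* and *Tpm4*. The list median was 0.65 beside 0.41 for all genes.

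Mural cells, the pericytes and smooth muscle cells of vessel walls, were read from 14 markers. Of these 1, *Ednra*, rose and 6 fell. The largest falls of the list were in *Higd1b*, at -1.76 (SE 0.22), *Rgs5*, at -1.69 (SE 0.16), the channel subunit *Kcnj8*, at -1.37 (SE 0.11), and *Ndufa4l2*, at -0.95 (SE 0.20). The 14 markers summed to 1552 to 1786 CPM in sham and 600.1 to 1056 CPM in MI. *Rgs5* alone was at 874 to 1102 CPM in sham and 203 to 401 CPM in MI, so it weighs heavily in that sum. *Notch3* (-0.25), *Pdgfrb* (-0.14) and *Itga8* (-0.12) did not pass, and on FPKM these 3 were above 0. *Cspg4*, also not called on counts, was at 25.8 to 33.0 CPM in sham. It was at 41.9 CPM in fl/fl-MI 1, 49.1 and 44.2 in CKO-MI, but 19.6 in fl/fl-MI 2. The list had 2 rises (*Ednra* and *Cspg4*) and 3 falls (*Higd1b*, *Rgs5* and *Kcnj8*) on that scale. All 7 endothelial markers fell (5 of 7 on FPKM), with a median of -1.48, from a sum of 1698 to 1890 CPM to 541 to 806 CPM. Their part in the fall of *Mylk*, *Actg2* and *Myh11* was not tested.

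Fibroblast genes moved the other way. Of 13 markers of activated fibroblasts 11 rose and 0 fell, with a median of 2.73: *Comp* by 4.99 (SE 0.83), *Ltbp2* by 3.94 (SE 0.96), periostin (*Postn*) by 3.91 (SE 0.59) and *Thbs4* by 3.74 (SE 1.09). Of 8 general fibroblast markers 7 rose, with a median of 1.10, and of 9 genes of the TGF-beta pathway, a known inducer of *Acta2*, 8 rose, among them *Ccn2* by 3.56 (SE 0.28). The 13 activated fibroblast markers summed to 216 to 427 CPM in sham, 506 CPM in fl/fl-MI 2 and 2304 to 4013 CPM in the other MI libraries. In fl/fl-MI 2, 4 of the 13 were at their lowest of the 8 libraries. Without that library the list median was 3.18. *Acta2*, *Tagln* and *Cnn1*, named above as also made by myofibroblasts, had log2 fold changes of 0.14, -0.06 and 0.06 in the same comparison. On log2(FPKM + 1) they were at 0.70, 0.49 and 0.50, beside a median of 0.41 for all genes, and *Acta2* was called higher. Of the remaining lists, 2 of 8 cardiomyocyte markers rose and 2 fell, 3 of 7 macrophage markers, 3 of 5 epicardial markers and 1 of 5 atrial markers rose, and none of these last 3 lists held a fall (without fl/fl-MI 2, 1 atrial marker also fell). The cardiomyocyte markers had 3 rises and 4 falls without fl/fl-MI 2, and 4 rises and 1 fall on FPKM.

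**Figure D5:**
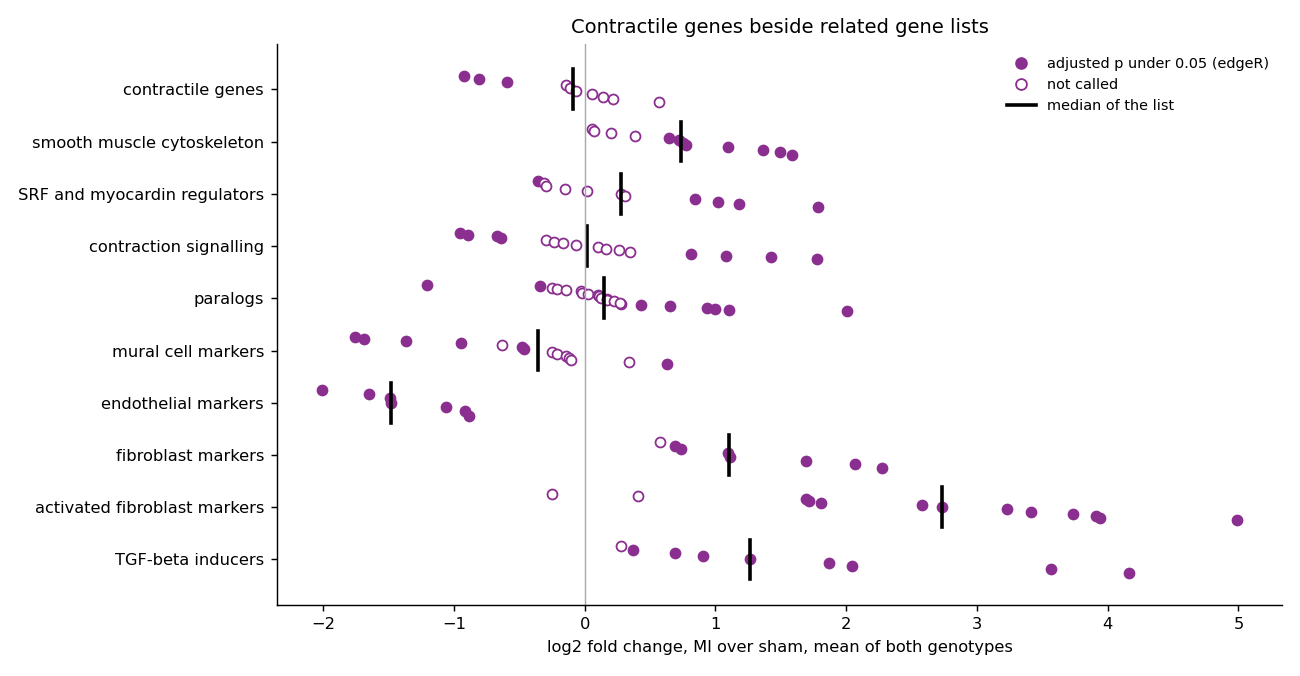
Log2 fold change after MI (mean of both genotypes, TMM-scaled counts, edgeR) of the 10 contractile genes and of 9 related lists, a point per gene, filled where the adjusted p was under 0.05, with medians as black bars. The contractile genes have a median of -0.09, between the mural and endothelial markers, at -0.35 and -1.48, and the activated fibroblast markers, at 2.73.

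Within the set, the closest profiles over the 8 libraries were those of *Actg2* and *Mylk*, with a root mean square difference of 0.209 between their centred log2 CPM, and of *Myh11* and *Mylk*, at 0.220. The farthest were *Myl9* and *Lmod1*, at 1.39, which parted in fl/fl-MI 2. Outside the set, the 5 genes nearest to *Acta2* were *Itga3* (0.152), *Meis3*, *Arxes2*, *Sat1* and the cytoplasmic actin *Actg1* (0.201). Those nearest to *Myh11* were Gm42688 (0.208), *Lrrc45*, the row named *Mir143* (0.236), Gm15122 and Gm12992 (0.240). These distances describe 8 libraries that share 2 surgeries and carry no test.

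CArG boxes were looked for in the RefSeq promoter windows of GRCm38.p6, from 250 bases before to 50 after the RefSeq start. They were at hand for 7 of the 10 genes. The CArG box was read as its 10-letter form on both strands, and a CArG-like element as the same form with 1 of the 6 inner A or T letters replaced by G or C. The box was found in 1 of the 7 genes and the CArG-like element in 2, against 1.63% and 8.5% of 32851 windows of the same length. *Acta2* and *Myl9* were the 2 with a match. No window was at hand for *Actg2*, *Tagln* and *Myh11*. The matches are shown with 10 bases on either side, written 5′ to 3′ on the gene's strand with the element in capitals.
Acta2, chr19:34255438-34255467, minus strand: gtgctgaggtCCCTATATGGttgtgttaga
Acta2, chr19:34255388-34255417, minus strand: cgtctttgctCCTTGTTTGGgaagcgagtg
Myl9, chr2:156775293-156775322, plus strand: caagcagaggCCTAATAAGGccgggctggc
Myl9, chr2:156775355-156775384, plus strand: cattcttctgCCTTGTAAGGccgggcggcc

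Both elements of *Acta2* are CArG-like and lie 84 and 34 bases before its RefSeq start. *Myl9* holds a CArG box 161 and a CArG-like element 99 bases before its RefSeq start. The *Acta2* span given above, on the minus strand, begins at 34255590, another start, and both *Acta2* elements lie within that span. The windows of *Cnn1*, *Smtn*, *Lmod1*, *Mylk* and *Tpm2* held neither form. Other starts of a gene were not searched: the *Smtn* window, chr11:3539243-3539542, does not reach the start of Smtn-201 at 3527937. The part of these elements in the levels was not tested.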

How the data were processed

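Poly(A) RNA libraries of mouse myocardium were made and sequenced by the authors. They deposited, for 33249 genes and 94947 transcripts, a whole-number count per library, not normalized, and FPKM, normalized to length and library size. The submitters' processing notes name cutadapt 1.9 and FastQC; the aligner and counter are not given in the sources used here. Of the gene IDs 99.7% were found in GENCODE M21 (GRCm38). Low counts have local peaks at multiples of 4. Total counts of 73821747 to 88117573 limit precision less than the spread between 2 libraries per group.

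Counts of the 14028 genes whose mean FPKM reached 0.5 were tested with edgeR 4.0.16 (quasi-likelihood, TMM, 1 mean per group, all 8 libraries, R 4.3.3), with Benjamini-Hochberg adjusted p under 0.05 over all genes tested as the call. The SE is the log2 fold change over the root of F. The procedure was tested on simulated counts. CPM are TMM-normalized. Transcript FPKM and sequences were described without a test. Members and lists were chosen with earlier results of these data known. Named were all 10 members, up to 4 called genes per list with the largest changes, the myocardin regulators, actins and tropomyosins, and the 5 nearest profiles to *Acta2* and *Myh11* whatever they did. *Piezo1*, *Esr1*, *Myl4*, *Bmp10*, *Notch3*, *Pdgfrb*, *Itga8* and *Cspg4* were named after their values were seen.

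Alternatives were RLE scaling, DESeq2 1.42.0, no filter, a stricter filter (mean FPKM 5 or more), limma 3.58.1 on log2(FPKM + 1) and log2(FPKM + 0.1), counts divided by 4, a replicate block, only the 4 libraries compared, genotype labels ignored, an unadjusted p under 0.05 with a 2-fold change, and each library left out. Results of some genes in the lists are not reported here. Leaving out fl/fl-MI 2 with the genotype labels ignored was added after seeing the data. Python 3.11.15 and pandas 2.3.3 were used for the remaining steps.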

Additional observations from a re-analysis of the deposited data

Results flagged for a closer look

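Among the 4 MI libraries, the one labelled fl/fl-MI 2 lay far from the nearest other library for 3 contractile genes. *Myl9* was at 241 CPM there, and its gap to the next library took 0.897 of the range. *Smtn* was at 197 CPM (0.900 of the range) and *Tpm2* at 129 CPM (0.942 of the range). All 3 pass Dixon's 95% limit for 4 libraries, and chance passes it in about 1 in 20 groups. The limit was applied to each of the 10 genes in the 4 MI and in the 4 sham libraries. The 3 genes share 1 library, so they are not independent. The share of all genes passing the limit was not computed, but 19.9% of all genes were at their highest in fl/fl-MI 2. The 4 MI libraries join both genotype labels, and the groups of 2 libraries were not tested in this way. The 5 atrial markers moved with these values, at 19857 summed CPM in the same library, and their part was not tested.

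For *Acta2* the MI effect had opposite signs under the genotype labels. Both fl/fl-MI libraries were above both fl/fl-Sham libraries, and both CKO-MI libraries were below both CKO-Sham libraries. Of the 10 contractile genes 1 had such an opposite order, and the share of all genes with it was not computed. The effect in CKO minus that in fl/fl was -1.43 on the log2 scale (SE 0.38, adjusted p = 0.57 in edgeR), so the difference did not pass the test.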

How the results depend on the processing

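Over both genotypes, the count of 3 members called after MI was 2 to 3 and all lower under RLE scaling, DESeq2, no filter, the stricter filter on FPKM, counts divided by 4, the replicate block (2) and the genotype labels ignored. It was 1 on log2(FPKM + 1) and on log2(FPKM + 0.1), where the called gene was *Acta2* and higher, 0 at an unadjusted p under 0.05 with a 2-fold change, and 5, all lower, with the genotype labels ignored and fl/fl-MI 2 left out. In that last setting *Tpm2* reversed, to -0.49 (adjusted p = 0.035), fl/fl-MI 2 being the library with its highest value. With each library left out the count ran from 1 to 5: 1 without fl/fl-Sham 2, CKO-Sham 2 or CKO-MI 1 (*Mylk* each time) and 5 without fl/fl-MI 1 (2 of them, *Myl9* and *Tpm2*, higher). *Mylk* kept its call in each of these 8 fits.

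In CKO-MI against CKO-Sham the count of 2 became 1 without a filter, 1 with the stricter filter on FPKM, 0 and 0 on the FPKM scales, 6 with only the 4 libraries, and 1 at an unadjusted p with a 2-fold change, and ran from 0 to 3 with a library left out. In fl/fl-MI against fl/fl-Sham the count of 0 became 2 under DESeq2, 2 without a filter, 2 and 2 on the FPKM scales, and 1 at an unadjusted p with a 2-fold change, and ran from 0 to 5 with a library left out. In CKO-MI against fl/fl-MI it became 1 under DESeq2 and 2 at an unadjusted p with a 2-fold change, and ran from 0 to 4; in the interaction it became 2 at an unadjusted p with a 2-fold change and ran from 0 to 3. The highest counts in these 3 comparisons came without fl/fl-MI 1, when fl/fl-MI 2 alone stood for its group. In CKO-Sham against fl/fl-Sham it was 0 in every setting. The share of all genes called also changed in these fits: with a library left out it ran from 0.178% to 41.3% within CKO, from 0.848% to 29.8% within fl/fl and from 23.1% to 50.7% over both genotypes. A fit that leaves out a library gives its group 1 sample, assumed to vary like the others. The cause of these changes was not tested, and the fits with fewer libraries also rest on fewer degrees of freedom.

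The replicate numbers did not pair the libraries: the correlations of the deviations from the group means ran from -0.143 to 0.0635, and the replicate block left 2, 0, 2, 0, 0 and 0 calls in the 6 comparisons, with *Myh11* losing its call (-0.87, adjusted p = 0.079). *Cnn1*, *Lmod1* and *Mylk* were not tested under the stricter filter, and 2 libraries per group, more than depth, limit every comparison.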
